A study of Mus musculus with 12 samples.

Results

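Interferon-stimulated genes, the genes that cells switch on when interferon reaches them, were followed in the livers of Sirt1 heterozygous and wild-type mice kept on a high-fat or a low-fat diet. Probes were taken whose gene name on the array was 1 of 37 chosen interferon-stimulated genes or its older symbol, and the brightest probe of each gene was used. In all, 36 of the 37 genes had a probe, 56 probes together, and 35 passed the filter on dim probes, among 17042 genes tested. Xaf1 is not analysed here because no probe carried its name. Oas1g was not well above background on any array. Irf9 and Dhx58 stood on the array under the older names Isgf3g and D11Lgp2e. Of the 35 genes, 33 were well above background on all 12 arrays. The exceptions were Mx1, on 2 of 3 WT low-fat arrays, and Oas3, bright on 3 arrays of Het high-fat livers, 1 of WT high-fat, 0 of Het low-fat and 2 of WT low-fat livers.

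Each group held 3 male C57BL/6 mice with 1 array each, and all diets lasted 34 weeks. The groups were Het on the high-fat diet (1 intact and 1 altered Sirt1 allele), WT on the high-fat diet (SIRT1+/+), Het on the low-fat diet and WT on the low-fat diet. The change in the Sirt1 allele, the cells that carry it and the age of the mice are not given in the sources used here. Sirt1 encodes an NAD-dependent deacetylase, and both of its probes were lower in Het than in WT livers over both diets, by log2 differences of -0.44 ± 0.09 and -0.64 ± 0.09 (SE). Every Het array was below every WT array of the same diet for both probes, although neither passed after adjustment over all probes (limma, adjusted p = 0.935 and 0.355). The 7 measured hepatocyte markers were bright throughout, with a list mean between 6.81 and 7.45 on the 12 arrays. Levels are log2 processed signal minus the log2 of the 75th percentile of that array, so 0 means as bright as the 75th percentile. The high-fat arrays lay on slides 1 and 2 and were scanned on another day than the low-fat arrays on slides 3 and 4, so diet and scan day cannot be told apart. The share of spots well above background ran from 58.0% to 71.6%. The lowest shares were those of WT low-fat replicate 3 (58.0%) and Het low-fat replicate 1 (58.8%), and the main counts are also given without this pair.

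Type I and type III interferons act through receptors whose kinases activate the complex ISGF3, which holds STAT2 and IRF9 and binds the interferon-stimulated response element in promoters. Interferon gamma acts through the gamma-activated site. In the liver, hepatocytes, Kupffer cells and other immune cells all respond. The products sense viral RNA, block viral replication, present antigen on MHC class I or limit the response itself.

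Promoter stretches are shown because they carry the elements through which interferon acts, before 4 genes called in a diet comparison below and before Ifit1 and Ifit3, which were not called. RefSeq windows of build GRCm38.p6 were found for 29 of the 37 genes, 33 windows in all, and the 250 bases before each start were searched on both strands. The core of the response element was spelled GAAANNGAAA and the gamma-activated site TTCNNNGAA. The core stood before 11 of the 29 genes and in 33.3% of their windows, against 2.98% of 32851 windows of the genome. The gamma-activated site stood before 7 of the 29 genes and in 21.2% of their windows, against 7.02% of all windows. Both were found before Oas1a, Bst2 and Igtp. Of the tested genes with a window, the core stood before 3 of 9 that a diet comparison called and 7 of 18 that none called, and the gamma-activated site before 4 of 9 and 3 of 18. A match is only a run of letters, not a bound site. The stretches below run 5′ to 3′ on the strand of the gene. Capitals mark the response element core in the first 5, on either strand, and the gamma-activated site in that of Irf8:
Isg15, chr4:156200819-156200918, minus strand: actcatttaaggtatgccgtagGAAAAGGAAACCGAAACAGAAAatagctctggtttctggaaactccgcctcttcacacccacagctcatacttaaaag
Oas1a, chr5:120907526-120907625, minus strand: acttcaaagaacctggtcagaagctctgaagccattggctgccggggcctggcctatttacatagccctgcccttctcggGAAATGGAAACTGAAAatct
Bst2, chr8:71537533-71537632, minus strand: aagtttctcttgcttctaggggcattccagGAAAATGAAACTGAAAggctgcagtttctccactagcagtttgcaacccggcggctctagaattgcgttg
Ifit1, chr19:34640769-34640868, plus strand: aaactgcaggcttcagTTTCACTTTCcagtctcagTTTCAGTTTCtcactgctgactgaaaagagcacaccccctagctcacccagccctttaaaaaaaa
Ifit3, chr19:34583349-34583448, plus strand: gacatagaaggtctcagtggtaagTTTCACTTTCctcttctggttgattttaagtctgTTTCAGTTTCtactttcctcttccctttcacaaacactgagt
Irf8, chr8:120736158-120736257, plus strand: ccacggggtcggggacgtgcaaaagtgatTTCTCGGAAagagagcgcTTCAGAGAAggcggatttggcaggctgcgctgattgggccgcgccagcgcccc
Isg15 held 3 copies of the core, starting 78, 72 and 66 bases before the gene start, each overlapping the next. Oas1a held 2 overlapping copies that began 20 and 14 bases before its start, and Bst2 held 2 at 130 and 124 bases. Ifit1 and Ifit3 carried 2 separate copies each, on the opposite strand. The gamma-activated site letters of Irf8 began 171 and 153 bases before its start.

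The diet comparison in Het livers asks what 34 weeks of the high-fat diet did to these genes where 1 copy of Sirt1 was altered. In Het livers 7 of the 35 genes rose and 0 fell, 20% of the members against 7.6% of all genes called higher and 8.26% called lower (15.9% in either direction). The genes that rose were Ifit2, Irf8, Psmb9, Oasl2, Ifi35, Isg15 and Bst2, by 1.37- to 1.91-fold. The median log2 difference of the 35 genes was 0.38, against -0.00 over all genes, and 26 of the 35 differences were above 0, as were 49.5% of all genes. An unadjusted p under 0.05 was reached by 18 members, 17 of them higher, and by 33.1% of all genes. Oas3 is among the 17 and the 26, but the filter on dim probes kept it only through its Het high-fat arrays. Of the 33 genes well above background on all arrays, 24 were above 0, with a median of 0.37. For 16 genes every Het high-fat array was above every Het low-fat array, against 17.4% of all genes, and for 1 gene, Iigp1, every one was below (19.2% of all genes). The test was limma's moderated two-sided test with Benjamini-Hochberg adjustment over all genes, where called means an adjusted p under 0.05. The count of 7 fell to 0 without Het high-fat replicate 1, to 3 without Het high-fat replicate 2, to 1 without Het low-fat replicate 1 and to 2 without Het low-fat replicate 3. It was also 1 without WT low-fat replicate 3 and Het low-fat replicate 1 together. The share of all genes called in either direction moved too, from 5.13% to 16.9% when 1 array was left out.

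**Figure D1:**
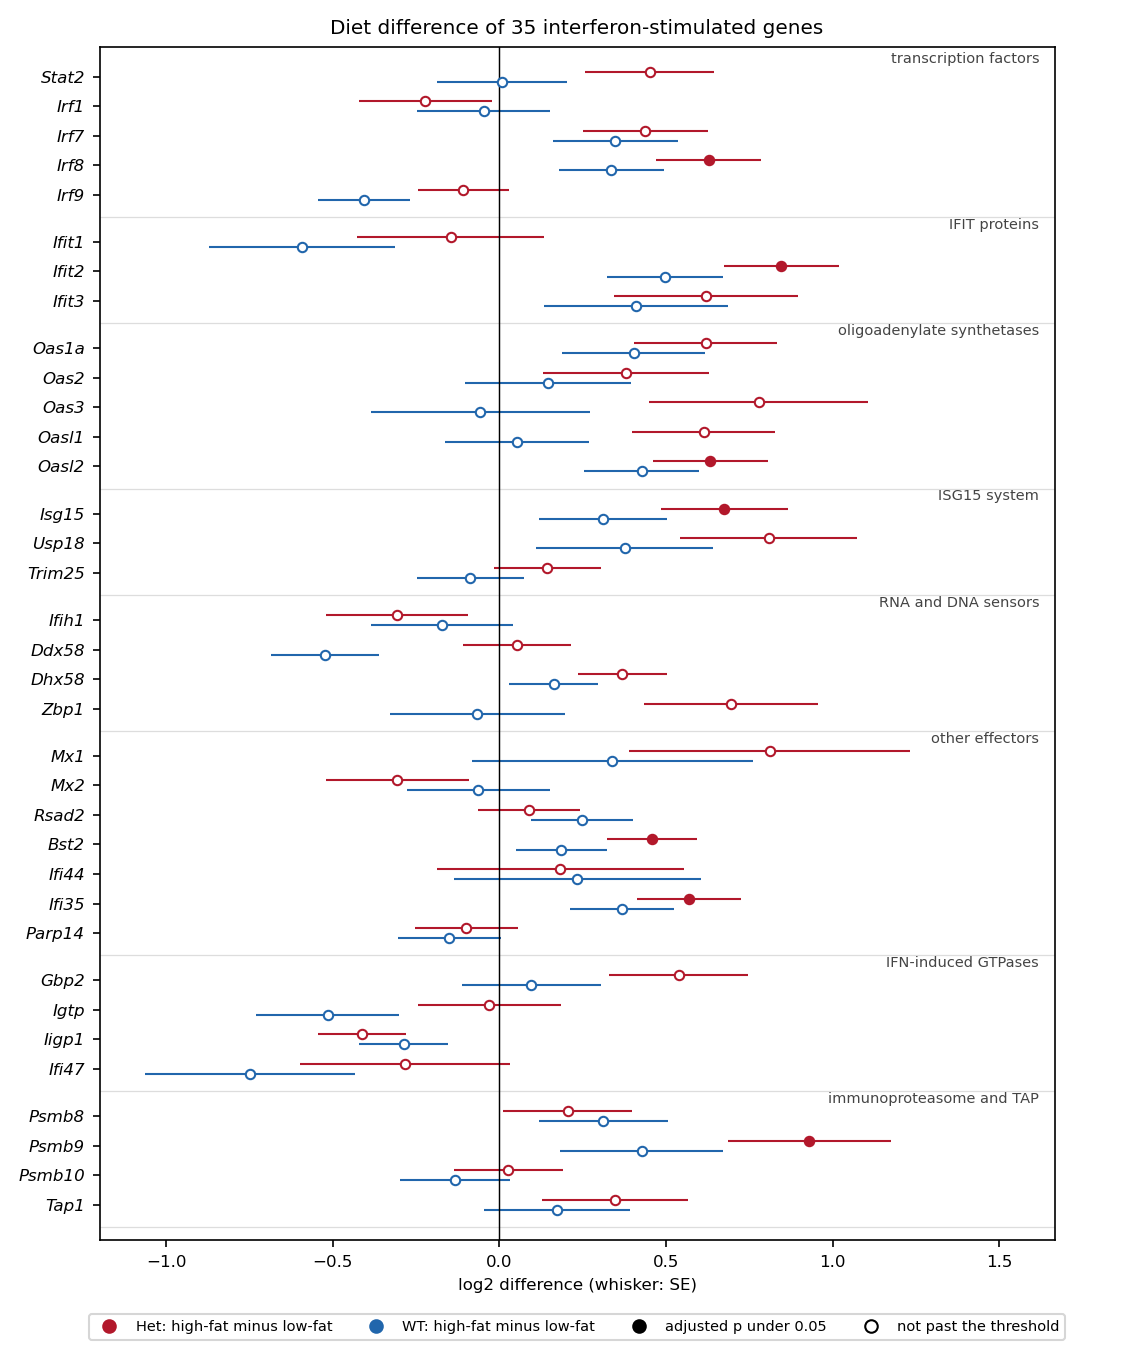
Log2 difference between the high-fat and the low-fat diet for each of the 35 genes, in Het (red, upper of each pair) and in WT livers (blue), with the SE as a whisker, in blocks of like role. Filled points had an adjusted p under 0.05: the 7 filled points are all in Het, and the WT points of the same genes lie to their left but also above 0.

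Of the 5 transcription factors of the response, 1 rose in Het livers. Irf8, a factor of macrophages, dendritic cells and their precursors, had log2 levels of 1.61, 1.18 and 1.25 in Het high-fat livers, against 0.56, 0.84 and 0.76 in Het low-fat livers. All Het high-fat arrays lay above all Het low-fat arrays, and the difference was 0.63 ± 0.16 (SE, n = 3 each, adjusted p = 0.0249). In WT livers the levels of Irf8 were 1.29, 1.22 and 0.98 on the high-fat diet, against 1.03, 0.80 and 0.65 on the low-fat diet, which overlap. That difference of 0.34 ± 0.16 did not pass (adjusted p = 0.206). A dimmer second Irf8 probe gave 0.80 ± 0.24 in Het livers (adjusted p = 0.0471 over all probes).

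Irf7, which amplifies the type I interferon response, stood at 0.96, 1.22 and 0.78 in Het high-fat livers and at 0.90, 0.46 and 0.72 in WT high-fat livers. On the low-fat diet its levels were 0.31, 0.83 and 0.51 in Het livers and 0.37, 0.56 and 0.10 in WT livers. The groups overlapped in each genotype, and the gene passed only over both genotypes, at 0.39 ± 0.13 (adjusted p = 0.0454).

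Irf9, the DNA-binding part of ISGF3, went the other way in WT livers. It had 1.77, 1.46 and 1.61 in WT high-fat livers, all below the 2.03, 1.93 and 2.10 of WT low-fat livers. The difference of -0.41 ± 0.14 had an adjusted p of 0.0989 and did not pass, and in Het livers it was -0.11 ± 0.14 (adjusted p = 0.617), with 1.46, 1.85 and 1.81 on the high-fat and 1.84, 1.90 and 1.71 on the low-fat arrays. Stat2, which encodes a part of ISGF3, had a difference of 0.45 ± 0.19 in Het livers (adjusted p = 0.132) and 0.01 ± 0.19 in WT livers (adjusted p = 0.984). Irf1, a target of interferon gamma, stood at -0.22 ± 0.20 in Het livers and -0.05 ± 0.20 in WT livers, and its 2 probes differed in sign in Het livers.

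Among the IFIT genes, whose products bind foreign RNA, Ifit2 had the lowest p of the 35 genes in Het livers. Ifit2 had log2 levels of -1.54, -1.79 and -1.56 in Het high-fat livers, against -2.62, -2.37 and -2.45 in Het low-fat livers. In WT livers it had -1.67, -1.94 and -1.99 on the high-fat diet, against -2.16, -2.18 and -2.76 on the low-fat diet. Every high-fat array lay above every low-fat array, in both genotypes. The difference was 0.85 ± 0.17 in Het (adjusted p = 0.0117, 1.80-fold) and 0.50 ± 0.17 in WT livers (adjusted p = 0.107, not passing). A dimmer second probe of Ifit2 gave 1.10 ± 0.31 in Het livers (adjusted p = 0.0376 over all probes).

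Ifit3 and Ifit1, on the same chromosome, did not pass. Ifit3, with 2 copies of the response element core before its start, had differences of 0.62 ± 0.28 in Het (adjusted p = 0.145) and 0.41 ± 0.28 in WT livers (adjusted p = 0.37). Ifit1, with 2 copies as well, had -0.15 ± 0.28 in Het (adjusted p = 0.749) and -0.59 ± 0.28 in WT livers (adjusted p = 0.212). A dimmer second probe of Ifit3 gave 0.13 ± 0.24 in Het livers (adjusted p = 0.747 over all probes). No test was made between these genes, whose probes differ.

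The oligoadenylate synthetases make the messenger 2-5A, which activates RNase L, and Oasl1 and Oasl2 are their OAS-like relatives. All 5 that were tested had differences above 0 in Het livers, from 0.38 to 0.78, and 1 of them, Oasl2, passed. The 0.78 is that of Oas3, which the filter on dim probes kept only through its Het high-fat arrays. Oasl2 had levels of 0.90, 0.35 and 0.58 in Het high-fat livers, against -0.21, 0.22 and -0.09 in Het low-fat livers. The WT livers had 0.54, 0.17 and 0.34 on the high-fat diet, against -0.03, 0.03 and -0.23 on the low-fat diet. High-fat and low-fat arrays were apart within each genotype. The difference of 0.63 ± 0.17 in Het livers passed (adjusted p = 0.0331), and that of 0.43 ± 0.17 in WT livers did not (adjusted p = 0.151).

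Oas1a, the first gene of the mouse Oas1 cluster, stood at 0.81, 0.71 and 0.42 in Het high-fat livers and at 0.51, -0.14 and 0.35 in WT high-fat livers. Its low-fat levels were -0.33, 0.42 and 0.00 in Het and -0.08, -0.11 and -0.29 in WT livers. It passed over both genotypes at 0.51 ± 0.15 (adjusted p = 0.0277) but in neither alone, and the high similarity of the Oas1 genes makes its signal uncertain as that of 1 gene. Oas3 was dim on all Het low-fat arrays, and its Het high-fat mean was 1.18-fold above a bound set for their mean. The arrays of the diets overlapped in Het livers, and the difference did not pass (adjusted p = 0.128). For this bound each dim array entered at its own Oas3 signal or, where larger, at its weakest signal from any probe well above background.

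ISG15 is a small ubiquitin-like protein that is joined to other proteins, and USP18 removes it and holds back the interferon receptor. Isg15 had levels of 1.22, 1.42 and 1.17 in Het high-fat livers, against 0.35, 0.92 and 0.52 in Het low-fat livers. It had 1.25, 0.78 and 0.71 in WT high-fat livers, against 0.79, 0.64 and 0.38 in WT low-fat livers. The groups were apart in Het livers, with a difference of 0.67 ± 0.19 (adjusted p = 0.0381, 1.60-fold), and overlapped in WT livers, at 0.31 ± 0.19 (adjusted p = 0.326). Per the file headers the array design places this probe on chromosome 17 of mm7, whereas RefSeq places Isg15 on chromosome 4 of GRCm38.p6, so its signal may include a similar sequence, which was not tested.

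Usp18 stood at 1.70, 1.52 and 1.03 in Het high-fat livers, against 0.27, 0.85 and 0.72 in Het low-fat livers. Its WT levels were 1.51, 1.25 and 1.05 on the high-fat diet, against 1.34, 0.97 and 0.38 on the low-fat diet. Although every Het high-fat array lay above every Het low-fat array, the difference of 0.81 ± 0.26 did not pass (adjusted p = 0.0612), while over both genotypes 0.59 ± 0.19 did (adjusted p = 0.0357). Trim25, a ubiquitin ligase that activates RIG-I, had 0.14 ± 0.16 in Het (adjusted p = 0.567) and -0.09 ± 0.16 in WT livers (adjusted p = 0.762).

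**Figure D2:**
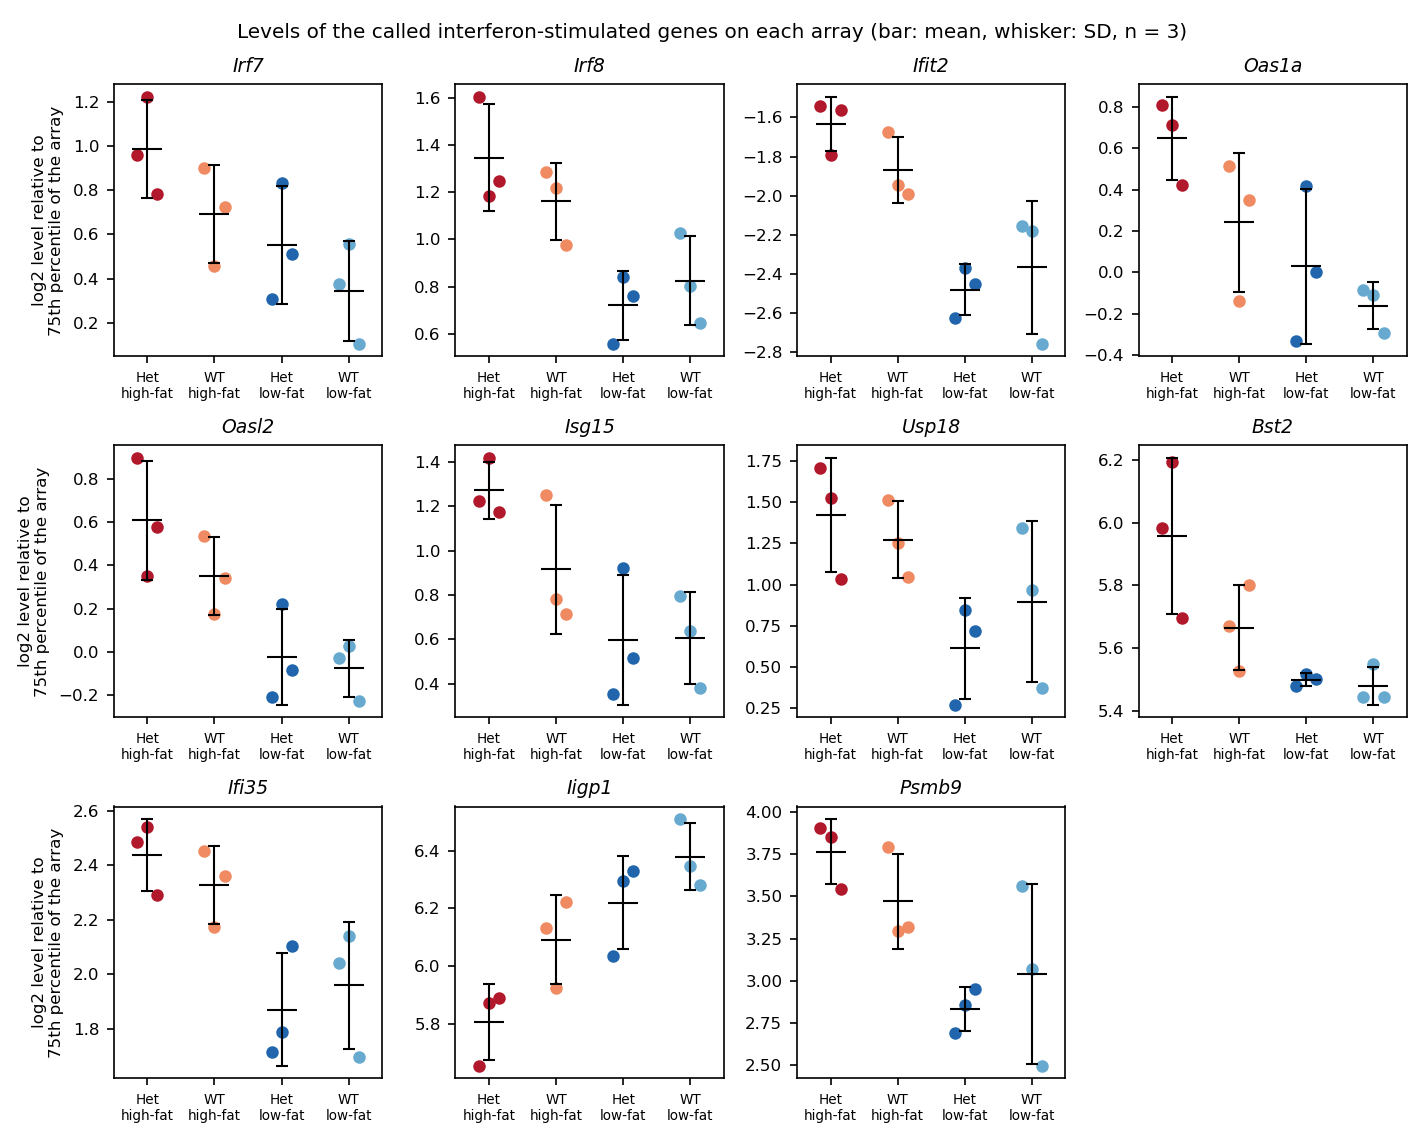
Log2 level of the 11 genes called in any diet comparison on each of the 12 arrays (points), with the mean (bar) and SD (whisker, n = 3) of each group. In 10 panels the mean of each high-fat group lies above that of the low-fat group of the same genotype, and Iigp1 runs the other way.

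By their brightest probes, 0 of the 4 sensors passed in any diet comparison. Dimmer probes of a pair of them were lower over both genotypes, a Ddx58 probe at -0.46 ± 0.12 (adjusted p = 0.0181 over all probes) and an Ifih1 probe at -0.46 ± 0.12 (adjusted p = 0.0178). Ddx58 encodes the RNA sensor RIG-I, and it had the lowest p of the 35 genes with diet in WT livers, where it was lower. Its levels were -0.75, -0.97 and -1.14 in WT high-fat livers, against -0.30, -0.49 and -0.50 in WT low-fat livers. These groups did not overlap, and the difference was -0.52 ± 0.16 (adjusted p = 0.0792). In Het livers Ddx58 had -0.91, -0.52 and -0.57 on the high-fat diet, against -0.52, -0.66 and -0.97 on the low-fat diet, and its difference of 0.05 ± 0.16 did not pass (adjusted p = 0.847). Its 4 probes did not share 1 sign in Het livers.

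Zbp1, a sensor of nucleic acids that can start cell death, had 0.72, 0.53 and 1.18 in Het high-fat livers, against -0.07, 0.51 and -0.09 in Het low-fat livers. In WT livers it had 0.63, 0.15 and 0.21 on the high-fat diet, against 0.58, -0.11 and 0.71 on the low-fat diet. The difference was 0.69 ± 0.26 in Het livers (adjusted p = 0.0936) and -0.07 ± 0.26 in WT livers (adjusted p = 0.894). Dhx58, which encodes the regulator LGP2, stood at 0.37 ± 0.13 in Het livers (adjusted p = 0.0844). Ifih1, which encodes MDA5, had a negative estimate of -0.31 ± 0.21 (adjusted p = 0.339).

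Of the other effectors, Bst2 and Ifi35 passed in Het livers. Bst2 encodes tetherin, which holds budding viruses at the cell surface and is also a marker of plasmacytoid dendritic cells. It had 5.98, 6.19 and 5.70 in Het high-fat livers, against 5.48, 5.52 and 5.50 in Het low-fat livers. In WT livers it had 5.67, 5.53 and 5.80 on the high-fat diet, against 5.44, 5.55 and 5.45 on the low-fat diet. The Het low-fat arrays were close to each other, and the Het difference was 0.46 ± 0.14 (adjusted p = 0.0444), against 0.19 ± 0.14 in WT livers (adjusted p = 0.409). This was the called gene whose call was lost most often, without any 1 of 10 arrays (adjusted p up to 0.136 over all alternatives).

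Ifi35, which encodes an interferon-induced leucine zipper protein, had 2.48, 2.54 and 2.29 in Het high-fat livers, against 1.72, 1.79 and 2.10 in Het low-fat livers. In WT livers it had 2.45, 2.17 and 2.36 on the high-fat diet, against 2.04, 2.14 and 1.70 on the low-fat diet. It is 1 of 2 genes, with Ifit2, whose 6 high-fat arrays all lay above all 6 low-fat arrays, a pattern of 6.01% of all genes. The difference was 0.57 ± 0.16 in Het (adjusted p = 0.0348) and 0.37 ± 0.16 in WT livers (adjusted p = 0.168). Rsad2 (viperin), Ifi44, Mx1, Mx2 and Parp14 did not pass, with Het differences from -0.31 to 0.81. Mx1, an antiviral GTPase of which C57BL/6 mice carry a defective allele, had the top of that range, on signals between -5.51 and -2.87 that are near the background.

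Of the 4 GTPases, which interferon gamma induces strongly, 3 had estimates below 0 in each genotype. Iigp1, which encodes an immunity-related GTPase that acts on parasite vacuoles, was the 1 gene that fell with diet over both genotypes. Iigp1 had 5.66, 5.87 and 5.89 in Het high-fat livers, against 6.03, 6.29 and 6.33 in Het low-fat livers. Its WT levels were 6.13, 5.92 and 6.22 on the high-fat diet, against 6.51, 6.35 and 6.28 on the low-fat diet. The high-fat arrays were lower without overlap in each genotype, and the difference over both was -0.35 ± 0.09 (adjusted p = 0.019). It did not pass with arrays scaled to their median (-0.29, adjusted p = 0.0674) or once each array was corrected for probe brightness and GC content (-0.18, adjusted p = 0.122).

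Igtp, of the same family, had 3.62, 3.64 and 3.81 in Het high-fat livers, against 3.37, 3.96 and 3.83 in Het low-fat livers. In WT livers it had 4.07, 3.36 and 3.54 on the high-fat diet, against 4.43, 3.91 and 4.18 on the low-fat diet. Neither the Het difference of -0.03 ± 0.21 (adjusted p = 0.94) nor the WT difference of -0.52 ± 0.21 (adjusted p = 0.161) passed. Ifi47, another member, had -0.28 ± 0.31 in Het (adjusted p = 0.565) and -0.75 ± 0.31 in WT livers (adjusted p = 0.166). Over both genotypes the estimates of Iigp1, Igtp and Ifi47 were below 0 under every one of 23 settings, scaling included. Gbp2, a guanylate-binding protein, had a positive estimate of 0.54 ± 0.21 in Het livers (adjusted p = 0.1).

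In the immunoproteasome, which trims peptides for MHC class I, 1 of the 3 subunit genes rose in Het livers. Psmb9 had 3.90, 3.85 and 3.54 in Het high-fat livers, against 2.69, 2.86 and 2.95 in Het low-fat livers, without overlap. In WT livers it had 3.80, 3.29 and 3.32 on the high-fat diet, against 3.56, 3.07 and 2.50 on the low-fat diet, which overlap. The differences were 0.93 ± 0.24 in Het livers (adjusted p = 0.0294, 1.91-fold) and 0.43 ± 0.24 in WT livers (adjusted p = 0.293). Psmb8 stood at 0.20 ± 0.19 (adjusted p = 0.491) and Psmb10 at 0.03 ± 0.16 (adjusted p = 0.927) in Het livers. Tap1, a part of the peptide transporter, starts 226 bases from Psmb9 on the other strand and had 0.35 ± 0.22 (adjusted p = 0.295).

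In WT livers the same diet comparison called 0 of the 35 genes, against 2.73% of all genes called higher and 3.19% called lower. In limma 7 members had an unadjusted p under 0.05, 3 of them higher, against 25.8% of all genes in either direction. The adjusted p of the members ran from 0.0792 to 0.984. The median difference was 0.15, against -0.05 over all genes, and 21 of 35 differences were above 0, as were 45.2% of all genes. All genes called in either direction made up 5.92%. The high-fat arrays lay wholly above the low-fat arrays for 4 genes, Ifit2, Oasl2, Ifi35 and Rsad2, and wholly below for Ddx58, Irf9, Ifi47 and Iigp1. Those shares of 4 in 35 stand beside 12.5% and 18% of all genes. No leave-one-out fit called a member, while these fits called 1.09% to 6.61% of all genes. With arrays scaled to their median 2 members were called, and the share of all genes there is not given here.

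Over both genotypes, 10 genes rose and 1 fell with the high-fat diet. That is 28.6% and 2.86% of the members, against 13.4% and 16.7% of all genes (30.2% in either direction). An unadjusted p under 0.05 was reached by 15 members and 42.9% of all genes, and 24 differences were above 0, against 46.8% of all genes. Of the 33 genes well above background on all arrays, which leave out Oas3 and Mx1, 22 were above 0. All high-fat arrays lay below all low-fat arrays for 0 members and 7.41% of all genes. The Het and WT comparisons share no arrays, but this one is made of both and is no further evidence. The genes that rose were Ifit2 (0.67 ± 0.12, adjusted p = 0.00343), Oasl2 (0.53 ± 0.12), Irf8 (0.48 ± 0.11), Ifi35 (0.47 ± 0.11), Psmb9 (0.68 ± 0.17), Isg15 (0.49 ± 0.14), Oas1a, Bst2 (0.32 ± 0.10), Usp18 and Irf7. In an exact two-sided permutation test within genotypes, Ifit2, Oasl2, Ifi35 and Iigp1 each reached p = 0.005, the smallest that the 400 arrangements can give. Any gene whose diets are apart in the same direction in both genotypes must reach it, so this restates the lack of overlap. The permutation test was run on the members only, so no share over all genes stands beside it. Within 1 genotype no such test of 3 mice against 3 can go below 0.1. The count of 11 was 7 without WT high-fat replicate 1, WT low-fat replicate 3, Het high-fat replicate 1 or Het high-fat replicate 2, each removed in turn. It was 6 without Het low-fat replicate 1, and 3 without the pair of WT low-fat replicate 3 and Het low-fat replicate 1. The share of all genes called in either direction ran from 22.2% to 32.3% when 1 array was left out.

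**Figure D3:**
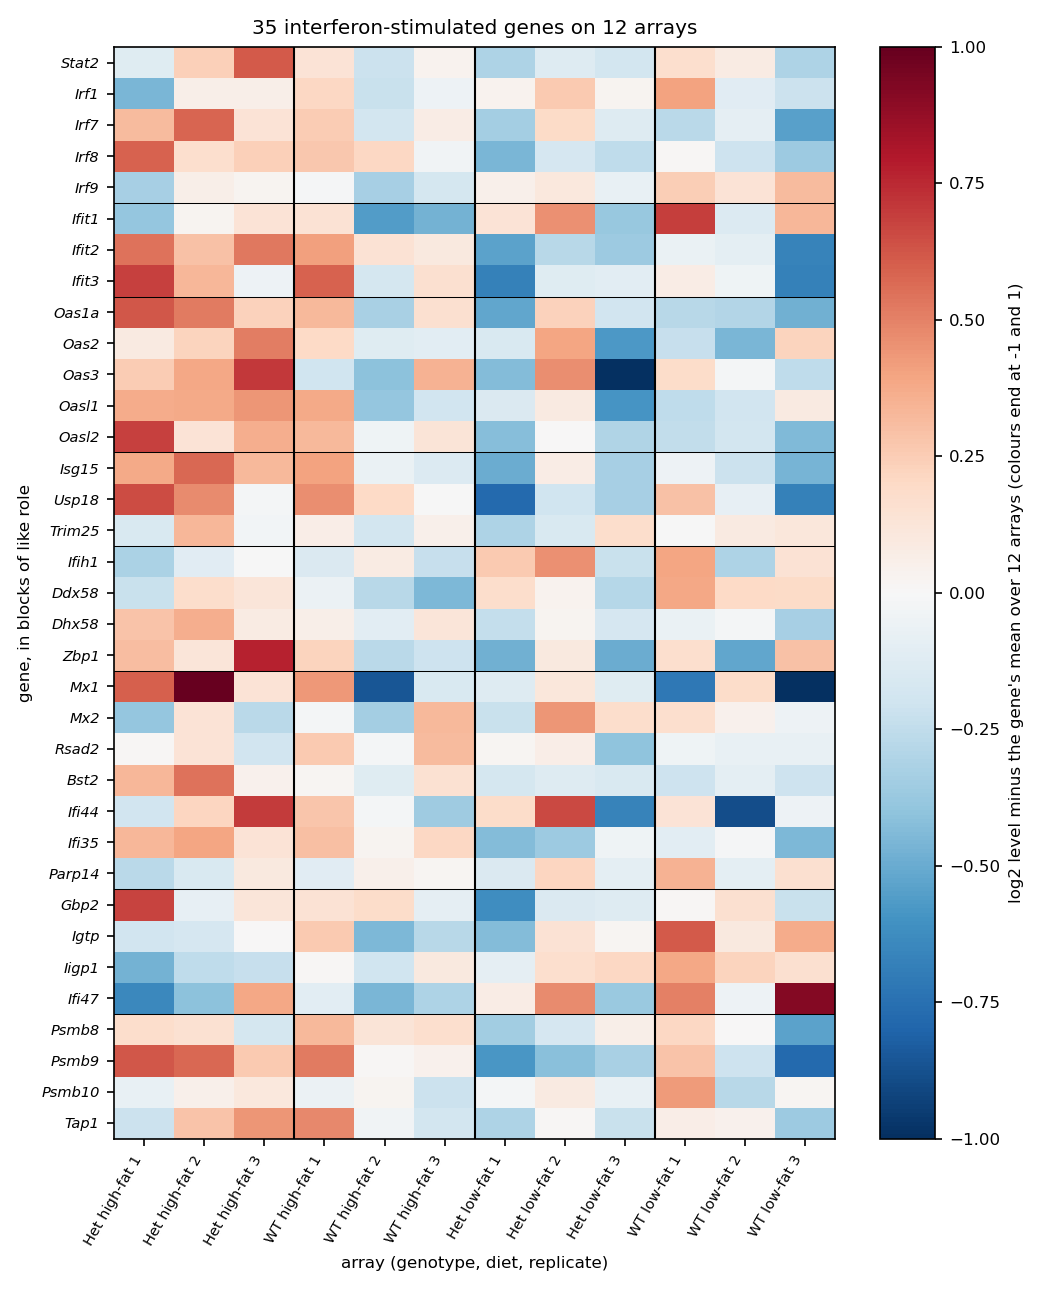
Log2 level of each of the 35 genes on each array minus its mean over the 12 arrays (colour, from -1 to 1), with genes in blocks of like role and arrays in columns by group. Het high-fat replicates 2 and 3 are mostly above the mean and Het low-fat replicates 1 and 3 mostly below, with Iigp1 and Ifi47 among the genes reversed on some of them. Het high-fat replicate 1 is mixed, with the highest level of 8 genes and the lowest of 6.

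Averaged over the 35 genes, the levels were 1.19, 1.31 and 1.26 in Het high-fat livers and 1.26, 0.92 and 1.04 in WT high-fat livers. The averages were 0.82, 1.16 and 0.84 in Het low-fat livers and 1.17, 0.97 and 0.90 in WT low-fat livers. By this average the Het high-fat livers all lay above the Het low-fat livers, though narrowly, and the WT livers of the diets overlapped. With each gene standardised before averaging, the Het livers of the diets overlapped too. Het high-fat replicate 1 then had 0.21, below the 0.26 of Het low-fat replicate 2. The other Het high-fat arrays stayed above all Het low-fat arrays. WT low-fat replicate 3 held the lowest level of 11 of the 35 genes, and Het high-fat replicate 1 the highest of 8 and the lowest of 6.

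The genotype comparisons ask whether the altered Sirt1 allele moved these genes within a diet. In Het against WT livers 0 of 35 genes passed on either diet or over both diets, as did 0% of all genes. On the high-fat diet 28 of 35 estimates were above 0, as were 54.9% of all genes, with a median of 0.19 against 0.03 over all genes. Oas3, which the filter on dim probes kept only through its Het high-fat arrays, is among the 28. In limma 1 member had an unadjusted p under 0.05 there (8.66% of all genes), and adjusted p ran from 0.567 to 0.975. The Het arrays lay wholly above the WT arrays for 0 members (9.15% of all genes) and wholly below for Iigp1 (5.79%). Scaled to the median of each array, the medians were 0.07 for the members and -0.09 for all genes. On the low-fat diet 11 of 35 estimates were above 0, as were 49.1% of all genes. The median was -0.09 against -0.00 over all genes, and 0 members had an unadjusted p under 0.05 in limma (2% of all genes, adjusted p of every member near 1). The Het arrays lay wholly below the WT arrays for Ddx58 and Irf9 (2.4% of all genes) and wholly above for 0 members (1.95%).

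On the high-fat diet the lowest p was that of Mx1, with -3.84, -2.87 and -4.31 in Het livers, against -4.01, -5.30 and -4.60 in WT livers. These overlap, and the difference of 0.96 ± 0.42 did not pass (adjusted p = 0.567). Bst2 followed at 0.29 ± 0.14 (adjusted p = 0.586). Oasl1 had 1.21, 1.21 and 1.28 in Het livers, against 1.22, 0.45 and 0.65 in WT livers, a difference of 0.46 ± 0.22 (adjusted p = 0.586). A single WT array reached the Het levels.

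On the low-fat diet Igtp (-0.45 ± 0.21), Ddx58 (-0.29 ± 0.16) and Irf9 (-0.21 ± 0.14) had the lowest p, and each had an adjusted p near 1. Over both diets these were Mx1 (0.73 ± 0.30), Iigp1 (-0.22 ± 0.09) and Oas1a (0.30 ± 0.15), with adjusted p near 1 as well. On the low-fat diet Mx1 had -4.57, -4.33 and -4.56 in Het livers, against -5.16, -4.26 and -5.51 in WT livers, which overlap. Limma gave 2 members an unadjusted p under 0.05 over both diets, against 4.84% of all genes. Estimates were above 0 for 21 members and 52.2% of all genes. All Het arrays lay above all WT arrays for 0.0352% of all genes and below for 0.0117%.

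Both genotypes lay on 1 slide only on slide 2, with 3 Het and 1 WT high-fat arrays, and on slide 3, with 1 Het and 3 WT low-fat arrays. Within slide 2 the median difference of the members was 0.24, with 28 of 35 above 0. Within slide 3 it was -0.24, with 6 of 35 above 0. The slide 3 value sets Het low-fat replicate 1 against the WT arrays, 1 array whose share of bright spots was among the lowest.

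**Figure D4:**
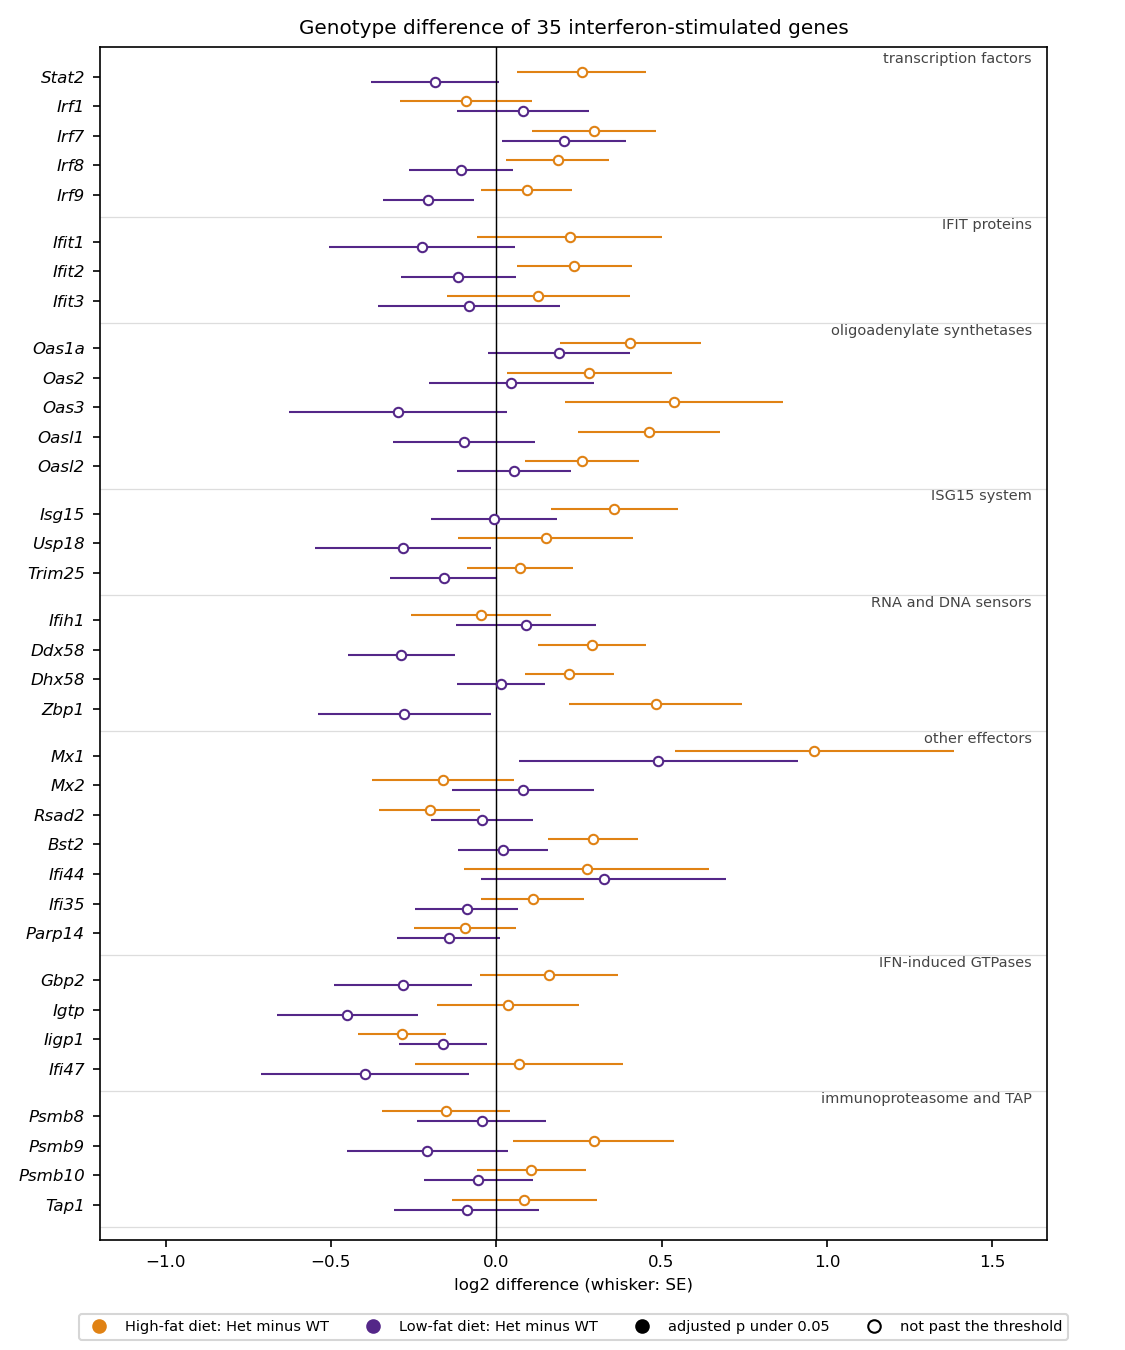
Log2 difference between Het and WT livers for each of the 35 genes, on the high-fat diet (orange, upper of each pair) and on the low-fat diet (purple), with the SE as a whisker. No point is filled, since 0 genes passed. On the high-fat diet 28 points lie right of 0, and on the low-fat diet 11.

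The difference between the diet effects in Het and in WT livers was tested itself as an interaction. It called 0 of 35 members, and limma gave 1 of them, Ddx58, an unadjusted p under 0.05 (4.86% of all genes; adjusted p of every member near 1). The 3 lowest p were those of Ddx58 (0.58 ± 0.23), Zbp1 (0.76 ± 0.37) and Oasl1 (0.56 ± 0.30). On the low-fat diet Oasl1 had 0.69, 0.93 and 0.25 in Het livers, against 0.58, 0.65 and 0.93 in WT livers. The estimate was above 0 for 28 of 35 genes, as for 54.4% of all genes, with a median of 0.24 against 0.03. Oas3, which the filter on dim probes kept only through its Het high-fat arrays, is among the 28. For Ifit2 the interval of the interaction ran from -0.19 to 0.89, for Psmb9 from -0.26 to 1.26 and for Isg15 from -0.23 to 0.96 (95% confidence). The calls in Het and not in WT livers are therefore not shown to differ between the genotypes.

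Genes upstream of the response were counted next, from lists chosen with earlier results of these data known. Of 17 interferon genes 5 were measured, and 0 passed. Ifnb1, Ifna2, Ifna4, Ifna11, Ifnk and Ifne were well above background on no array. In limma Ifng had 0.57 ± 0.61 in Het (adjusted p = 0.554) and -0.37 ± 0.61 in WT livers (adjusted p = 0.735), and it was near the background. Of 10 receptor and kinase genes 1 rose and 1 fell in Het livers, near the shares over all genes (7.6% higher and 8.26% lower). Ifnar2, a chain of the type I receptor, was at 3.24, 3.28 and 3.14 in Het high-fat livers, against 3.61, 3.71 and 3.57 in Het low-fat livers, and fell by 0.41 on the log2 scale (adjusted p = 0.045). Ifnlr1, the type III receptor chain, rose by 1.63 ± 0.49 (adjusted p = 0.046), but its Het low-fat signals were well above background on 0 of 3 arrays, so this fold change has no measured lower side.

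Of 15 measured sensors and adaptors 2 rose and 0 fell in Het livers, the RNA receptor gene Tlr7 (0.86 ± 0.22) and the adaptor gene Traf3 (0.65 ± 0.16). Of 13 negative regulators 0 rose and 2 fell there. In lists this short these counts lie near the shares over all genes (7.6% higher and 8.26% lower). Irf2, which competes with IRF1, averaged 0.69 ± 0.28 in Het high-fat livers, against 1.94 ± 0.31 in Het low-fat livers (SD, n = 3 each), a difference of -1.25 ± 0.29 (adjusted p = 0.0204). Socs3, an inhibitor of cytokine signalling, averaged 1.65 ± 0.21 in Het high-fat livers, against 2.58 ± 0.31 in Het low-fat livers (SD, n = 3 each), a difference of -0.93 ± 0.24 (adjusted p = 0.0264). In WT livers 0 of these receptors, sensors and regulators passed, but the WT means of those called in Het livers moved the same way. On the high-fat against the low-fat diet, Ifnar2 averaged 3.22 against 3.63 in WT livers. Ifnlr1, near the background on the low-fat diet, averaged -4.65 against -5.88. Tlr7 averaged -2.32 against -2.95 and Traf3 0.37 against -0.14. Irf2 averaged 1.02 against 1.81 and Socs3 1.35 against 1.95.

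A longer list of other interferon-stimulated genes moved in part. Of 47 measured, 9 rose and 1 fell in Het livers, against 7.6% and 8.26% of all genes. In WT livers 2 rose and 0 fell, against 2.73% and 3.19% of all genes. The median was 0.10 in Het and -0.02 in WT livers. Oas1c, of the Oas1 cluster, had 0.01, -0.29 and -0.25 in Het high-fat livers, against -1.85, -1.44 and -1.51 in Het low-fat livers (1.42 ± 0.23, adjusted p = 0.00574). Plscr1, a phospholipid scramblase gene, rose in both genotypes, with 1.07 ± 0.18 in Het livers (adjusted p = 0.00607) and 0.73 ± 0.18 in WT livers (adjusted p = 0.0435). Isg20, an RNA exonuclease gene, rose likewise, with 0.80 ± 0.15 in Het livers (adjusted p = 0.00829) and 0.57 ± 0.15 in WT livers (adjusted p = 0.0477). Slfn2, a regulator of immune cell quiescence, rose by 0.97 ± 0.19 in Het livers (adjusted p = 0.00965). Of 8 antigen presentation genes Ciita, the master switch of MHC class II, rose in Het livers by 1.10 ± 0.31 (adjusted p = 0.0375).

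Markers of liver and immune cell types were set beside these values. In bulk liver, fewer cells of a type and less RNA per cell cannot be told apart. Over all genes, 7.6% were called higher and 8.26% lower in Het livers, 2.73% and 3.19% in WT livers, and 13.4% and 16.7% over both genotypes.

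Of the 12 macrophage and Kupffer cell markers 3 rose and 1 fell in Het livers, 2 rose and 0 fell in WT livers, and 4 rose and 1 fell over both genotypes. Gpnmb and Trem2, markers of lipid-associated macrophages, rose in both. Gpnmb had differences of 3.23 ± 0.60 in Het (adjusted p = 0.00864) and 4.04 ± 0.60 in WT livers (adjusted p = 0.0106). The size of these differences is uncertain, since Gpnmb was well above background on only 2 Het low-fat arrays and 1 WT low-fat array. Trem2 had 1.79 ± 0.41 in Het (adjusted p = 0.0188) and 2.23 ± 0.41 in WT livers (adjusted p = 0.0196). In Het livers Cd68 rose (0.76 ± 0.20) and Timd4, a marker of resident Kupffer cells, fell (-2.25 ± 0.62). Timd4 does not stand for the list, of which 9 markers were above 0 in Het livers (median 0.21) and 10 in WT livers (median 0.26). In WT livers Timd4 had -1.19 ± 0.62 and Marco -1.09 ± 0.98, against 0.03 for Clec4f, 0.09 for Vsig4 and 0.06 for Cd5l, and none of these passed. The list mean ran from 1.05 to 1.95 in Het high-fat, from 1.73 to 1.82 in WT high-fat, from 1.06 to 1.70 in Het low-fat and from 1.16 to 1.38 in WT low-fat livers.

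The 12 measured T and NK cell markers had a median difference of 0.44 in Het and -0.40 in WT livers, with 9 and 1 above 0. Cd3e, a chain of the T cell receptor complex, fell in Het livers (-1.16 ± 0.30, adjusted p = 0.0282), and 0 markers passed in WT livers. Over both genotypes 3 fell, Cd3e (-1.02 ± 0.21), Ptprcap (-0.48 ± 0.11) and Cd4 (-0.51 ± 0.15), and 0 rose. The list mean ran from -3.21 to -2.86 in Het high-fat, from -3.61 to -3.28 in WT high-fat, from -3.59 to -3.01 in Het low-fat and from -3.16 to -2.77 in WT low-fat livers.

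Of 5 neutrophil markers 0 passed in either genotype, and 3 rose over both, Ltf (1.91 ± 0.53), Mpo (1.61 ± 0.49) and Camp (2.40 ± 0.82). Camp was well above background on 3 Het high-fat, 1 WT high-fat, 0 Het low-fat and 0 WT low-fat arrays, and Ltf on 3, 2, 0 and 1. The filter kept both only through Het high-fat livers, and their low-fat side is largely background. Camp had -6.04, -1.75 and -7.78 in WT high-fat livers. The estimates of all 5 markers over both genotypes were above 0, with a median of 1.61. Their list mean ran from -3.03 to -2.51 in Het high-fat, from -4.33 to -0.42 in WT high-fat, from -4.67 to -3.30 in Het low-fat and from -4.75 to -4.34 in WT low-fat livers. Among 5 dendritic cell markers Itgax rose (1.86 ± 0.39, adjusted p = 0.0131) and Zbtb46 fell (-0.66 ± 0.14, adjusted p = 0.0117) in Het livers, and both did so over both genotypes, while 0 passed in WT livers. Cd209a was above background on no array. The 4 measured plasmacytoid dendritic cell markers include Bst2, the 1 that passed, and had a median of 0.01 in Het livers. Of 4 B cell markers 0 passed in these comparisons.

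The collagen genes Col1a1 and Col3a1, the 2 of 6 stellate cell markers that rose in Het livers, rose in WT livers too. Col1a1 had 2.07 ± 0.48 in Het (adjusted p = 0.0191) and 2.07 ± 0.48 in WT livers (adjusted p = 0.0361), and 3 of the 6 rose over both genotypes. Of 5 cholangiocyte markers 1 rose in Het livers, Spp1 (2.09 ± 0.46), 0 in WT livers and 3 over both genotypes. Of 6 endothelial markers Cdh5 and Kdr fell in Het livers, and in WT livers Kdr fell and Lyve1 rose (1.24 ± 0.32). Of 7 hepatocyte markers Cps1 and Ttr fell in Het livers and Cps1 in WT livers. The part of these cell types in the differences of the interferon-stimulated genes was not tested.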

How the data were processed

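Liver RNA from 12 mice was hybridised to 1-colour Agilent arrays, with 3 biological replicates a group per the series' design. Scanner output was made by Agilent Feature Extraction 9.5 (submitters' processing notes). It was deposited as intensity values, made with spatial and multiplicative detrending switched on, per the file headers. The deposited series table held the same linear, uncentred intensity values, with medians of 80.2, 83.2 and 114.6 (Het high-fat), 86.3, 117.1 and 78.3 (WT high-fat), 142.4, 163.4 and 101.8 (Het low-fat) and 142.1, 95.2 and 129.9 (WT low-fat).

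Levels are log2 intensity minus the log2 of the 75th percentile of the array. Control and outlier spots were left out and spots of 1 probe averaged, which gave 41174 probes. A probe was kept (25296 were) if some group had it well above background on each of its arrays and every group had at least 2 values. The brightest probe stood for a gene. One model of 4 group means over 12 arrays was fitted in limma 3.58.1 (R 4.3.3), with moderated two-sided tests, Benjamini-Hochberg adjustment over 17042 genes and a threshold of 0.05. The model was also run on simulated data with independent noise and no slide or scan day effect. That run does not bear on diet and scan day being inseparable here. The number of arrays limits the precision.

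Members, lists, tests and alternatives were chosen with earlier results of these data known. The rule for named genes gives values by array for members called in any comparison, for the 3 of lowest p where a comparison called under 3, and values for up to 4 called genes of each list. Same-numbered arrays of different groups did not deviate together (correlations from -0.46 to 0.12), so the numbers were not treated as pairs.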

Additional observations from a re-analysis of the deposited data

How the results depend on the processing

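Each count of called interferon-stimulated genes was recomputed under other settings. For diet in WT livers (0 called) it was 2 with scaling to the median, which moved the median of all genes from -0.05 to 0.07, and 5 with slide as a random block. The shares of all genes called in WT livers under these settings are not given here, so these counts are not read as a result about the members. For diet in Het livers (7) it was 1 without a filter on dim probes, 2 with only the groups compared, 3 with the replicate block, 16 with slide as a random block, and 0 to 7 when 1 array was left out. Over both genotypes (11) it was 7 without a filter on dim probes, 21 with slide as a random block and 6 to 14 when 1 array was left out. Without WT low-fat replicate 3 and Het low-fat replicate 1, a setting added after the data were seen, the counts were 1 in Het livers and 3 over both genotypes. The random slide block used a negative correlation (-0.18), which makes differences between slides look more precise. Over these settings the share of all genes called moved from 4.30% to 31.8% in Het livers and from 13.7% to 51.1% over both genotypes. The causes of the moves in the counts were not tested. Normexp background correction, quantile normalization, the mean of all probes of a gene, a stricter background filter and removal of the array trend on probe GC content and brightness, the last added after the data were seen, kept these counts within 1.5 times. Genotype and interaction gave 0 under all settings run. No called gene changed sign. Over both genotypes Ifit2 and Psmb9 passed under all 22 alternatives, and in Het livers Ifit2 lost its call only without Het high-fat replicate 1 (adjusted p = 0.0511). Irf8, Oasl2, Ifi35 and Iigp1 passed over both genotypes whichever array was left out. Depth, as the share of spots above background, limits Mx1 and Oas3.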

Other observations

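The genes outside the 37 whose levels moved most like the mean of the standardised members, over the 12 arrays after the group means were removed, were a transcript with no gene symbol (Pearson's r = 0.95), Ssu2 (0.93), Nfatc2 (0.93), Scgb3a1 (0.92) and Oas1f (0.90). Among the members Isg15 had the highest such r (0.92) and Gbp2 the lowest (0.13). Each member is itself part of that mean, which raises its r, so these values do not compare with those of genes outside. The median r over 595 pairs of members was 0.30. These values are a description of 12 arrays, which share scaling and depth within an array.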
